A study of Mus musculus with 24 samples.

Results

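Krüppel-like factors were followed through 8 of their genes, Klf2, Klf3, Klf4, Klf6, Klf7, Klf9, Klf10 and Klf13, which were chosen by name and are 8 of the 43430 genes in the deposited table of counts. All 8 passed the filter on low counts in every fit, among 13467 genes tested with all libraries and 13629 in a second fit described below. The 24 libraries, 6 groups of 4, hold RNA of sorted alveolar macrophages, and all mice were C57BL/6J. The mice were young, at 8 to 12 weeks, or old, at over 18 months, and were either naive or studied 28 days after asbestos, a mineral fibre that scars the lung. Naive lungs gave 1 sort, Siglec F-high, at each age, and asbestos lungs gave both a Siglec F-high and a Siglec F-low sort. Siglec F is a sialic acid-binding lectin carried by resident alveolar macrophages; the series text speaks of resident and monocyte-derived cells, while the labels name the sorts by Siglec F alone. No naive Siglec F-low group was present, so the sorts were tested against each other only within asbestos lungs.

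Krüppel-like factors are transcription factors that bind GC-rich and CACCC-containing DNA through zinc fingers at their C-terminal end, and members differ mainly in the activating or repressing regions ahead of the fingers. In monocytes and macrophages KLF2 is known as a brake on inflammatory gene expression, KLF4 as a factor of monocyte differentiation and alternative activation, and KLF6 as a factor that favours inflammatory genes. KLF10 is an early response gene of TGF-beta, KLF9 a target of the glucocorticoid receptor, KLF13 a regulator of the chemokine gene Ccl5 in T cells, KLF3 a repressor that recruits CtBP proteins, and KLF7 a broadly expressed activator studied mostly in neurons.

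On GRCm38, GENCODE places the genes at chr8:72319033-72321656 (Klf2), chr5:64803388-64832901 (Klf3), chr13:5861482-5870394 (Klf6) and chr19:23141226-23168134 (Klf9) on the plus strand. Klf4 is at chr4:55527143-55532466, Klf7 at chr1:64029447-64122282, Klf10 at chr15:38291463-38300706 and Klf13 at chr7:63886351-63938915, all on the minus strand. Promoter sequences were used for 7 of the 8 genes, all but Klf10, in RefSeq on GRCm38.p6. They are shown for the 4 genes without antisense overlap that were called in at least 1 comparison, Klf2, Klf6, Klf4 and Klf13, so that the genes that moved together can be set beside each other. Each line gives 220 bases, from base 250 to base 31 before the RefSeq start, 5′ to 3′ on the strand of the gene, with GC boxes (GGGCGG on either strand) and the MEF2 site in capitals.
Klf2, chr8:72318812-72319031, plus strand: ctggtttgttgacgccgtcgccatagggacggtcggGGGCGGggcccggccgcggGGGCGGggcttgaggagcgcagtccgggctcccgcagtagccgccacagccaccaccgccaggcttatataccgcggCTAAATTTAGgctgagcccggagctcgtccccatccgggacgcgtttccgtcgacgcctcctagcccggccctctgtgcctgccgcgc
Klf6, chr13:5861239-5861458, plus strand: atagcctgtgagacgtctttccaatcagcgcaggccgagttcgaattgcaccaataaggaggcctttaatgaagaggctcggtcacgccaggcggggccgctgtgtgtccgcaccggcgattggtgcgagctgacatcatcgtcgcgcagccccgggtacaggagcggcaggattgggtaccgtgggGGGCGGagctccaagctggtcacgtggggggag
Klf4, chr4:55532506-55532725, minus strand: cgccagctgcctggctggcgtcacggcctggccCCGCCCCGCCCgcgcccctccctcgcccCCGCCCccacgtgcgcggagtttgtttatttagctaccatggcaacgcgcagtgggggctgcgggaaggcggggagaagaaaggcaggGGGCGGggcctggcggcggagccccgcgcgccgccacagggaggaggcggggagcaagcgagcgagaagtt
Klf13, chr7:63938946-63939165, minus strand: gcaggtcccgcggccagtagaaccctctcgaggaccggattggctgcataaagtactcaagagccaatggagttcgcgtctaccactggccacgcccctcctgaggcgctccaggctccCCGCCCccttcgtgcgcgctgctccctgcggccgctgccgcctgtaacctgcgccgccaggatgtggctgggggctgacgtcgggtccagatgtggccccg
A MEF2 site, CTAAATTTAG, began 118 bases before the start of Klf2 and was the only MEF2 match among the 7 promoters. Of 32851 promoters of the same 250 bases, 1.69% held a MEF2 site. MEF2 proteins are the factors through which the kinase ERK5 is known to switch on Klf2. The 250 bases held 2 GC boxes in Klf2, 1 in Klf6, 4 in Klf4, 3 in Klf13, 6 in Klf3, 1 in Klf7 and 0 in Klf9, and 32.7% of all promoters held at least 1. The CACCC core, searched on both strands, occurred 5 times in Klf3, 3 times in Klf7 and 1 time each in Klf2, Klf9 and Klf13, and was not found in the 250 bases of Klf4 or Klf6, while 52% of all promoters held it. An AP-1 match (TGANTCA) was found in Klf9 alone, against 6.75% of promoters. None of the 7 held a serum response CArG box, a cAMP response core (TGACGTCA) or a glucocorticoid response element, which 1.47, 1.55 and 0.387% of promoters held. The search for GC boxes was added after the sequences had been seen, and these matches describe the letters only. RefSeq and GENCODE starts differ for some genes. The 250 bases of Klf7 lie wholly inside its GENCODE gene. Those of Klf3, and by fewer bases those of Klf2 and Klf6, run past the GENCODE start.

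Of the 24 libraries, 22 held 13423080 to 18124526 counts. The others stood apart. Old asbestos Siglec F-high replicate 3 had 3894699 counts with 56.2% on rRNA-related genes, against 0.261 to 0.632% in the 22. Young asbestos Siglec F-high replicate 3 had 11889517 counts on 12528 genes, against 17069 to 18820 genes. The main results are therefore given with all 24 libraries and again with the 22, and group means below are of the 22 unless stated. Siglecf, the gene of the sort marker, averaged 456 to 534 CPM (counts scaled to a fixed library size with TMM factors) in the 4 Siglec F-high groups, 265 ± 27.4 (SD, n = 4) in young Siglec F-low and 173 ± 32.5 (SD, n = 4) in old Siglec F-low cells. Pparg, a defining factor of alveolar macrophages, was at 170 to 225 CPM in every group. The labels do not say that replicates were separate animals, so p-values measure only the spread between these libraries. In bulk RNA, fewer cells of a type and less RNA per cell cannot be told apart.

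Per kilobase of exon the 8 genes covered a wide range of levels. Averaged over the 6 groups, Klf4 was at 120 CPM per kb, above 97.5% of the genes tested, followed by Klf6 at 86.2 and Klf2 at 60.8. Klf10 and Klf13 lay together at 36.5 and 36.4 CPM per kb. Klf9 at 6.40, Klf3 at 3.98 and Klf7 at 2.64 CPM per kb were near the middle of the genes tested. Klf7 and Klf3 are the less certain values, because 3196 exon bases of Klf7 are shared with the antisense gene Gm26649 and 404 of Klf3 with Gm20033, and the strand setting of the counting was not stated. Among groups, young naive cells had the highest mean of 7 of the 8 genes. Klf4 was the exception, with its highest mean in old Siglec F-low and its lowest in young Siglec F-low cells. The plot of levels per exon length shows this order.

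**Figure D1:**
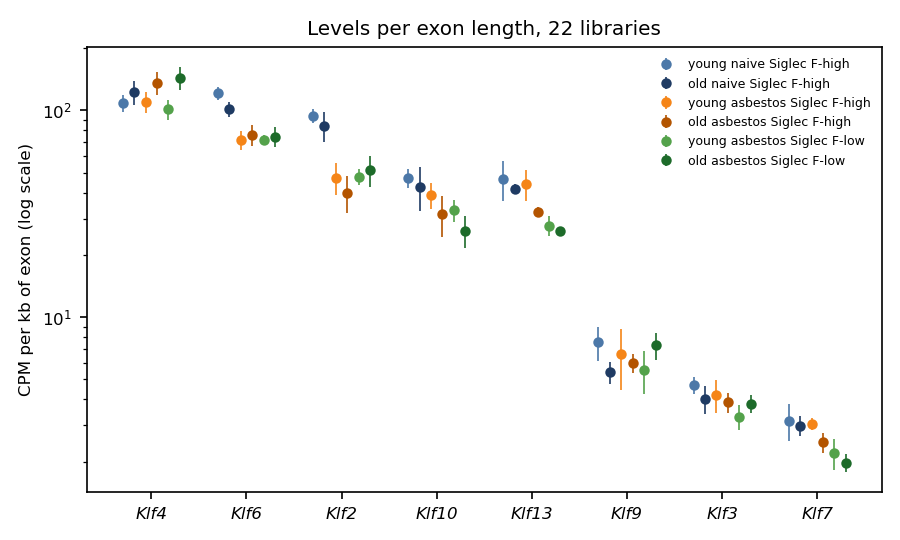
Mean level of each gene in CPM per kb of exon (log axis) in the 6 groups, 22 libraries, with bars for the SD of 3 or 4 libraries. Klf4, Klf6 and Klf2 lay highest and Klf9, Klf3 and Klf7 lowest in every group, and Klf2 and Klf6 were higher in both naive groups than in the 4 asbestos groups.

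With all 24 libraries, edgeR's quasi-likelihood test called 2 members in the 7 comparisons at a Benjamini-Hochberg adjusted p under 0.05. Of these, 1 was higher in old than in young Siglec F-low cells, where 1.29% of all genes were called and 0.869% were called higher. The other was lower in young Siglec F-low than Siglec F-high cells, where 4.99% of all genes were called and 1.58% were called lower. No member was called in the other comparisons. The percentages of all genes called there were 2.03% for old against young naive cells, 4.76% for old against young asbestos Siglec F-high cells, 1.9% for asbestos against naive in young cells, 0.78% for the same in old cells and 4.3% for Siglec F-low against Siglec F-high in old lungs. Members with an unadjusted p under 0.05 among those were Klf2 and Klf4 in old against young asbestos Siglec F-high cells, Klf10 for asbestos in young cells, Klf2 for asbestos in old cells, and Klf7 and Klf13 for the sorts of old lungs. In the same order, 3538, 2646, 1151 and 2079 of all 13467 genes were under that unadjusted limit. With 22 libraries 1 member was called higher for age in Siglec F-low cells (7.21% of all genes called, 3.8% higher). The sorts of young lungs had 2 called lower (12% of all genes called, 4.6% lower). Asbestos had 2 called lower in young cells (5.06%, 1.58% lower) and 2 called lower in old cells (4.12%, 0.969% lower). The others had 0, among 8.03, 7.32 and 11.6% of all genes for age in naive cells, age in asbestos Siglec F-high cells and the sorts of old lungs. In those comparisons without a call the members at an unadjusted p under 0.05 were Klf6 and Klf9, then Klf4 and Klf13, and then Klf2, Klf7 and Klf13. Of all 13629 genes, 2816, 2789 and 3214 were under that limit in the same order. Neither interaction, of age with asbestos or of age with sort, called a member in either fit (0% of all genes with 24 libraries and 0.0147% with 22). At an unadjusted p under 0.05 these held Klf6 for age with asbestos with 22 libraries and Klf9 for age with sort with 24. All genes under that limit there numbered 703 and 650. The asbestos and sort comparisons of 1 age share the asbestos Siglec F-high libraries, so their values are not independent.

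**Figure D2:**
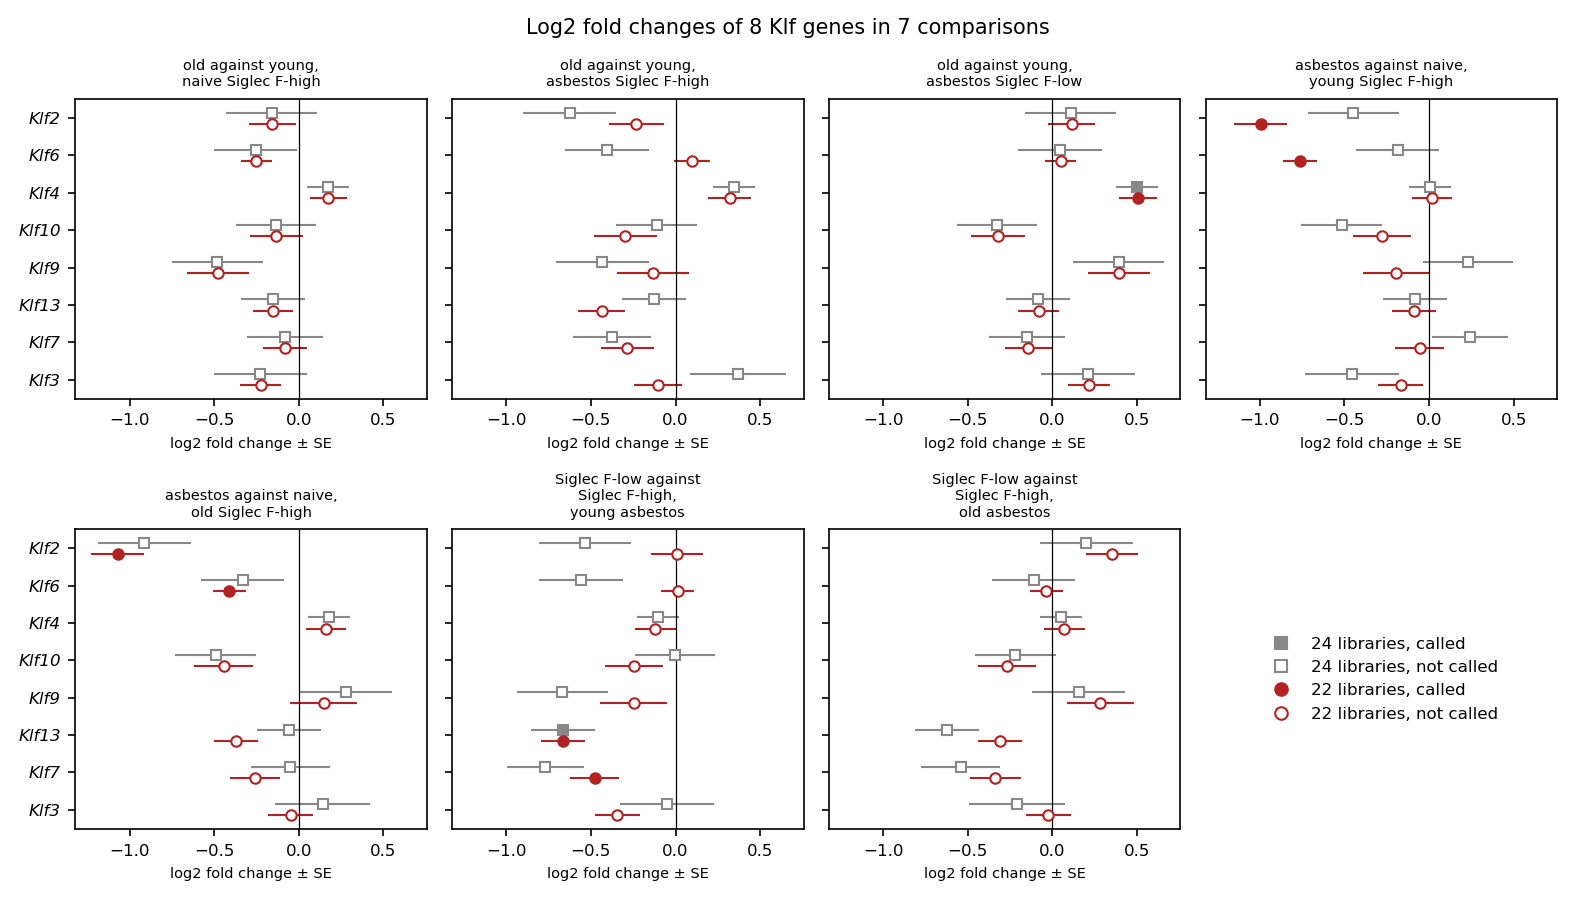
Log2 fold changes (x axis) ± SE of the 8 genes in the 7 comparisons of 2 groups, with 24 libraries (grey squares) and 22 (red circles), filled where edgeR called the gene. Klf2 and Klf6 lay below 0 in both asbestos comparisons and were called there with 22 libraries, Klf4 was called higher with age in Siglec F-low cells and Klf13 lower in young Siglec F-low cells in both fits.

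Klf2 fell after asbestos to about 0.502 of its naive level in young and 0.476 in old Siglec F-high cells with 22 libraries, and Klf6 fell less, to 0.590 and 0.753. Neither was called by edgeR with all 24 libraries, while limma voom with sample quality weights called both at both ages with the 24. That voom fit called up to 2309 of all genes in a comparison. Replicate 3 of the young asbestos Siglec F-high cells, 1 of the libraries that stand apart, held both genes at a higher level than any other library.

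Klf2 in young naive Siglec F-high cells was at 159, 188, 181 and 167 CPM in replicates 1 to 4. Young asbestos Siglec F-high cells had 72.1, 103, 248 and 87.3 CPM, the 248 in replicate 3. The other 3 asbestos libraries were all below the lowest naive one, and replicate 3 was above the highest. With 22 libraries the log2 fold change was -0.99 ± 0.15 (SE), edgeR adjusted p = 0.000399, with groups that did not overlap, as for 7.42% of genes in that direction. With 24 libraries it was -0.45 ± 0.27 (SE), edgeR adjusted p = 0.362, and leaving out that library alone gave -0.99 (edgeR adjusted p = 0.00172). The call held in each of the 7 fits that left out 1 more of the 22 libraries, at -1.13 to -0.87.

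In old naive cells Klf2 was at 179, 173, 123 and 147 CPM. Old asbestos Siglec F-high cells had 56.3, 82.1, 114 and 83.6 CPM, the 114 in the library rich in rRNA-related counts. All 4 asbestos libraries lay below all 4 naive ones, as for 3.84% of genes in that direction with 24 libraries. The log2 fold change was -0.91 ± 0.28 (SE), edgeR adjusted p = 0.169, with 24 libraries and -1.07 ± 0.16 (SE), edgeR adjusted p = 0.000242, with 22. Leaving out the library rich in rRNA-related counts alone gave -1.07 without a call (edgeR adjusted p = 0.126). With both libraries that stand apart left out, it was called in each of the 7 fits that left out 1 more of the 22. The interaction of age and asbestos for Klf2 was not called, at -0.08 (95% interval -0.50 to 0.35) with 22 libraries and -0.47 ± 0.38 (SE) with 24.

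Klf2 was not called between the sorts of either age by edgeR with 24 or 22 libraries. The young Siglec F-low libraries had 82.1, 97.2, 91.4 and 81.1 CPM and the old ones 71.3, 99.2, 101 and 108. All 8 lay below every naive library, but sort and asbestos both differ there, and no naive Siglec F-low group was there to compare them with. The share of all genes that do the same was not computed. With 22 libraries the difference between the sorts was 0.01 (95% interval -0.29 to 0.31) in young and 0.35 (95% interval 0.05 to 0.66, edgeR adjusted p = 0.159) in old lungs. With 24 it was -0.53 ± 0.27 (SE) in young (edgeR adjusted p = 0.264) and 0.20 ± 0.27 (SE) in old lungs (edgeR adjusted p = 0.853). Leaving out 1 more of the 22 called Klf2 in the old sorts in 1 of 7 fits. The order of the group means was young naive 174, old naive 156, old Siglec F-low 94.9, young Siglec F-low 88.0, young asbestos Siglec F-high 87.3 and old asbestos Siglec F-high 74.0 CPM. Neighbours in that order overlapped, except old naive and old Siglec F-low.

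Klf6 in young naive cells was at 474, 554, 542 and 555 CPM, and in young asbestos Siglec F-high cells at 278, 343, 927 and 323 CPM. As for Klf2, asbestos replicate 3 was the highest of all and the other 3 were below every naive library. The log2 fold change was -0.76 ± 0.10 (SE), edgeR adjusted p = 6.93e-05, with 22 libraries, and -0.19 ± 0.25 (SE), edgeR adjusted p = 0.685, with 24. Without that library alone it was -0.76 (edgeR adjusted p = 0.000408). Klf6 was called in each of the 7 fits that left out 1 more of the 22 libraries.

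Old naive cells had Klf6 at 397, 485, 464 and 434 CPM. Old asbestos Siglec F-high cells had 290, 346, 413 and 367 CPM. The 413 of replicate 3 overlapped the naive range and the other 3 lay below it, as for 6.99% of genes in that direction with 22 libraries. The log2 fold change was -0.41 ± 0.10 (SE), edgeR adjusted p = 0.0201, with 22 libraries and -0.33 ± 0.25 (SE), edgeR adjusted p = 0.854, with 24. Leaving out replicate 3 of that group alone gave -0.41 (edgeR adjusted p = 0.921). The 22-library call was lost without old naive replicate 2 (edgeR adjusted p = 0.0672), old naive replicate 3 (0.0541) or old asbestos Siglec F-high replicate 1 (0.155).

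The interaction of age and asbestos for Klf6 turned its sign with the 2 libraries. It was 0.35 ± 0.14 (SE) on the log2 scale with 22 libraries, where the fall was the smaller in old cells (edgeR adjusted p = 0.947, unadjusted p = 0.0200), and -0.15 ± 0.35 (SE) with 24 (edgeR adjusted p = 0.886). Old naive cells started lower, at 445 ± 38.6 (SD, n = 4) against 531 ± 38.4 (SD, n = 4) CPM, a difference of -0.25 ± 0.09 (SE) that was not called (edgeR adjusted p = 0.0991, 22 libraries). The 4 asbestos groups averaged 314 to 334 CPM and overlapped one another. In Siglec F-low cells Klf6 was at 292, 329, 325 and 323 CPM in young and 286, 310, 367 and 347 CPM in old lungs. The plot by library shows both genes at 2 levels, naive and asbestos, with the library that stands apart above them.

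**Figure D3:**
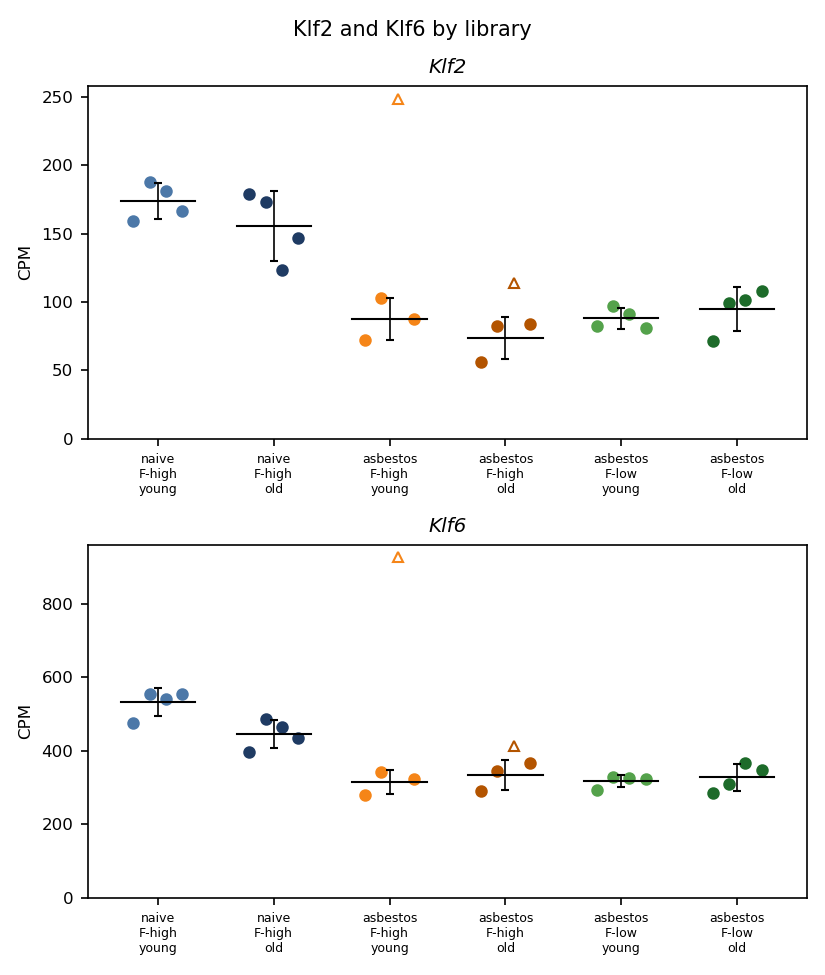
Klf2 (top) and Klf6 (bottom) in CPM by group; filled circles are libraries, open triangles the 2 libraries that stand apart, and bars the mean ± SD without those. Both genes were higher in the 8 naive libraries than in the asbestos libraries drawn as circles, and the triangle of young asbestos Siglec F-high cells, at 248 and 927 CPM, was the highest of each panel.

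Klf2 and Klf6 also varied together across libraries, with a Spearman coefficient of 0.889 over 22 and 0.91 over 24 libraries. This is a description over libraries that share groups. The 3 nearest to Klf2 were Rhob at 0.916, Klf6, and Jund at 0.862 (0.69, 0.91 and 0.797 over 24 libraries). The 3 nearest to Klf6 were Rnf146 at 0.898, Klf2, and Phospho2 at 0.877 (0.576, 0.91 and 0.873). Rhob encodes a small GTPase and Jund an AP-1 subunit, and both belong to the list of immediate early genes described next.

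Several immediate early genes, which are known to be induced when tissue is digested and sorted, were lower in the same comparisons. Of a list of 25 such genes, 8 fell and 0 rose for asbestos in young cells with 24 libraries (median log2 fold change -0.41, against -0.01 over all genes tested), and 10 fell and 0 rose with 22. In old cells 3 fell and 0 rose with 24 libraries, and 5 fell and 1 (Ier3, an early response survival gene) rose with 22. For asbestos 1.9% of all genes were called in young and 0.78% in old cells with 24 libraries, and 5.06% and 4.12% with 22. Rhob was at 465 ± 41.1 (SD, n = 4) CPM in young naive and 250 ± 34.2 (SD, n = 3) in young asbestos Siglec F-high cells, a log2 fold change of -0.90 ± 0.11 (SE) and an edgeR adjusted p of 4.06e-05 with 22 libraries. Jun, an AP-1 subunit, fell from 660 ± 114 (SD, n = 4) to 355 ± 43.2 (SD, n = 3) CPM, and Egr1, a zinc finger factor induced within minutes, from 246 ± 68.6 (SD, n = 4) to 101 ± 43.4 (SD, n = 3). Both were called at both ages and with 24 as well as 22 libraries. Fos, another AP-1 subunit, was at 2267 ± 199 (SD, n = 4) and 1797 ± 188 (SD, n = 3) CPM and was not called.

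The summed level of the 25 genes was 12432 to 13089 CPM in young naive and 9432 to 10774 CPM in young asbestos Siglec F-high libraries of the 22, and 14328 in the young library that stands apart. In old cells it was 10395 to 12742 CPM in naive and 10144 to 11089 CPM in asbestos Siglec F-high libraries, which overlapped. Over the 22 libraries the sum had a Spearman coefficient of 0.8 with Klf2, 0.807 with Klf6 and 0.142 with Klf4. B cell markers also moved. The shares of all genes called for asbestos, given above, are the background for these and for the monocyte markers below. All 9 B cell markers were tested and 3 fell for asbestos in young cells with 24 libraries, or 7 with 22, and 0 or 2 in old cells. Their sum was 30.8 to 63.8 CPM in naive and 15.6 to 28.4 CPM in asbestos Siglec F-high libraries, with no marker at 0 in a whole group. Sums of other markers were higher after asbestos. That of 10 resident alveolar macrophage markers, most of it Chil3, was 15338 to 20241 CPM in young naive and 23864 to 27862 CPM in young asbestos Siglec F-high libraries of the 22, and 16813 to 19533 and 36321 to 40519 CPM in old ones. That of 8 neutrophil markers was 30.5 to 38.4 and 49.8 to 57.4 CPM in young, and 39.1 to 52.8 and 59.3 to 75.7 CPM in old cells. The part of these lists in the fall of Klf2 and Klf6 was not tested. Of the endothelial markers, Cdh5 averaged 0.835 CPM in young naive and 1.18 CPM in young asbestos Siglec F-high cells and Emcn was at 0 in both asbestos Siglec F-high groups, while Vwf, also listed as an endothelial marker, was at 117 to 123 CPM in naive and 174 to 180 CPM in asbestos Siglec F-high groups. Of 9 monocyte markers 3 fell for asbestos in young cells with 24 libraries and 4 with 22, and 0 and 1 in old cells, while their sums overlapped between young naive (475 to 478 CPM) and young asbestos Siglec F-high libraries (458 to 527 CPM of the 22).

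Upstream of Klf2 and Klf4, a list of 11 genes of the ERK5 and MEF2 axis was tested in full. For asbestos against naive none was called in either age with 24 libraries, and with 22 only Hdac7, a deacetylase that represses MEF2, was called, lower in old cells. Mapk7, the gene of ERK5, was at 29.5 ± 1.92 (SD, n = 4) CPM in young naive and 31.9 ± 2.85 (SD, n = 3) in young asbestos Siglec F-high cells. Mef2d was at 93.2 to 125 CPM in the 6 groups and was not called. The median log2 fold change of the list was -0.06 in young and -0.01 in old cells with 22 libraries, and -0.23 and 0.03 with 24. Mef2c, another MEF2 gene, was called between the sorts, higher in young Siglec F-low cells with 24 libraries (0.84 ± 0.24 (SE), edgeR adjusted p = 0.0415) and at both ages with 22.

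Downstream, 20 of 22 genes linked to KLF2 or KLF4 were tested. With 22 libraries 4 rose and 2 fell after asbestos at each age, and with 24 it was 3 and 1 in young and 2 and 0 in old cells. The share of all genes called was 5.06% in young and 4.12% in old cells with 22, and 1.9% and 0.78% with 24. S1pr1, the sphingosine phosphate receptor of lymphocyte exit and a target of KLF2 in T cells, fell from 6.35 ± 1.21 (SD, n = 4) to 2.91 ± 0.481 (SD, n = 3) CPM in old cells (-1.13 ± 0.30 (SE), edgeR adjusted p = 0.0327, 22 libraries). In young cells S1pr1 was at 8.32 ± 2.45 (SD, n = 4) and 4.72 ± 1.95 (SD, n = 3) CPM and was not called. S1pr1 is also a lymphocyte gene. The B cell sums above were lower after asbestos too. T and NK cell sums of old cells overlapped, at 326 to 364 CPM in naive and 321 to 378 CPM in asbestos Siglec F-high libraries of the 22. The part of lymphocytes in the S1pr1 values was not tested. Those that rose at both ages were Arg1, the arginine-degrading enzyme of alternative activation, and Chil3, a secreted chitinase-like protein. Arg1 went from 0.584 ± 0.125 (SD, n = 4) to 9.48 ± 4.94 (SD, n = 3) CPM in young cells.

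Klf4 was higher in old than in young Siglec F-low cells, and it was the only member that edgeR without a replicate block called for age with all 24 libraries or with the 22. Limma voom also called Klf6 and Klf9 in naive and Klf13 in asbestos Siglec F-high cells with either set of libraries. Over all genes it called up to 2309 in a comparison with 24 libraries and up to 2392 with 22. Its share of all genes in these comparisons alone is not reported here. Young Siglec F-low libraries had 317, 285, 355 and 280 CPM. Old Siglec F-low libraries had 370, 446, 431 and 504 CPM. Every old library was above every young one, as for 6.33% of genes in that direction. Klf4 differed by a log2 fold change of 0.50 ± 0.12 (SE), edgeR adjusted p = 0.0435, with 24 libraries and 0.51 ± 0.11 (SE), edgeR adjusted p = 0.00576, with 22. Neither library that stands apart belongs to these groups.

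With 24 libraries the Klf4 call was lost with no filter on low counts (edgeR adjusted p = 0.142), and in 6 of the 8 fits that left out 1 library, namely without young Siglec F-low replicate 1, 2 or 4 or old Siglec F-low replicate 2, 3 or 4, at an adjusted p of up to 0.165. With 22 libraries it held in all 8. In asbestos Siglec F-high cells Klf4 was at 373, 336, 322 and 297 CPM in young and 373, 399, 442 and 474 CPM in old lungs, which touch at 373, and the log2 fold change of 0.35 ± 0.12 (SE) was not called (edgeR adjusted p = 0.0903, 24 libraries). Naive cells had 316, 294, 355 and 358 CPM when young and 416, 303, 379 and 392 when old, with overlap and a difference of 0.17 ± 0.12 (SE). The old mean was thus the higher in each of the 3 settings. Asbestos itself left Klf4 at 0.02 (95% interval -0.22 to 0.25) in young and 0.16 (95% interval -0.07 to 0.40) in old cells on the log2 scale, with 22 libraries.

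Among the ERK5 and MEF2 genes, Mef2a, which encodes a MEF2 protein, was higher in the same age comparison with 22 libraries, at 150 ± 8.53 (SD, n = 4) CPM in old and 126 ± 5.58 (SD, n = 4) in young Siglec F-low cells (0.26 ± 0.06 (SE), edgeR adjusted p = 0.0118). With 24 libraries Mef2a was called for age only in Siglec F-high cells of asbestos lungs (0.40 ± 0.10 (SE), edgeR adjusted p = 0.0219). Arg1 was higher in old than in young Siglec F-low cells, at 432 ± 86.2 (SD, n = 4) against 152 ± 39.5 (SD, n = 4) CPM. Monocyte markers moved with age too. Of 9, 0 were called with 24 libraries and 6 rose with 22 in Siglec F-low cells, beside 1.29% and 7.21% of all genes called. Their sum there was 609 to 712 CPM in old and 480 to 524 CPM in young libraries. The sum of resident alveolar macrophage markers, most of it Chil3, was 52579 to 66961 CPM in old and 36720 to 48520 CPM in young Siglec F-low libraries. The mean of Siglecf, of that same list, was the lower in old cells. The part of either list in the Klf4 difference was not tested. Patterns near that of Klf4 were Spns3 at a Spearman coefficient of 0.889 and Catsperd at 0.804 over 22 libraries (0.714 and 0.762 over 24). Its coefficients with the other 7 members were -0.511 to 0.0503.

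Klf13 was lower in Siglec F-low than in Siglec F-high cells of young asbestos lungs. Siglec F-high libraries had 267, 375, 330 and 351 CPM, and Siglec F-low libraries 184, 199, 216 and 237 CPM. The sorts did not overlap, as for 4% of genes in that direction with 24 libraries. The log2 fold change was -0.66 ± 0.19 (SE), edgeR adjusted p = 0.0447, with 24 libraries and -0.66 ± 0.13 (SE), edgeR adjusted p = 0.00107, with 22. The 24-library call was lost when only the libraries compared were fitted (edgeR adjusted p = 0.0813) and without Siglec F-high replicate 2 or 4 or any 1 Siglec F-low library (up to 0.140). With 22 it held in all 7 such fits. Marker sums moved between the same young sorts of the 22 without overlap, from 23864 to 27862 up to 36720 to 48520 CPM for resident alveolar macrophage markers, from 171 to 185 up to 239 to 273 CPM for endothelial markers, and from 49.8 to 57.4 up to 80.02 to 87.8 CPM for neutrophil markers. Most of the resident sum was Chil3, while the mean of Siglecf, of the same list, was lower in Siglec F-low cells. Most of the endothelial sum in Siglec F-high cells was Vwf. The part of these lists in the Klf13 difference was not tested.

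In old lungs Klf13 was at 253, 229, 491 and 247 CPM in Siglec F-high and 190, 200, 209 and 188 CPM in Siglec F-low libraries. The 491 belongs to the library rich in rRNA-related counts, and the sorts did not overlap with or without it, as for 6.95% of genes in that direction with 24 libraries and 10.9% with 22. Klf13 differed between them by a log2 fold change of -0.62 ± 0.19 (SE), edgeR adjusted p = 0.0725, with 24 libraries and -0.31 ± 0.13 (SE), edgeR adjusted p = 0.136, with 22. With the replicate number as a block over all 22 libraries, it was -0.35 and called (edgeR adjusted p = 0.0477). That block is shared by all groups, most of which did not pass the pairing check, so it is not a paired fit of the old sorts. Whether the ages differ in this was tested as an interaction, which was not called (0.35 ± 0.18 (SE), edgeR adjusted p = 0.831, 22 libraries, and 0.04 ± 0.27 (SE) with 24). Between the ages, old asbestos Siglec F-high libraries lay below the young ones in the 22 (as for 13.3% of genes in that direction), with a log2 fold change of -0.44 ± 0.14 (SE) and an edgeR adjusted p of 0.0583. With 24 libraries they overlapped, at -0.13 ± 0.19 (SE) (edgeR adjusted p = 0.693). Naive cells had 321, 258, 405 and 419 CPM when young and 298, 308, 318 and 336 CPM when old. The old naive libraries lay within the range of the young asbestos Siglec F-high cells, and the young naive ones reached below and above it. Old asbestos Siglec F-high libraries of the 22 lay below the old naive ones, as for 6.99% of genes in that direction. That log2 fold change was -0.37 ± 0.13 (SE) and not called (edgeR adjusted p = 0.117). With 24 libraries these groups overlapped, at -0.06 ± 0.19 (SE). For asbestos in young cells it was -0.09 ± 0.13 (SE) with 22.

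Klf7 followed Klf13, with a Spearman coefficient of 0.884 over 22 libraries and 0.89 over 24. In young asbestos lungs it was at 25.5, 22.8, 47.5 and 26.1 CPM in Siglec F-high and 19.2, 13.5, 20.2 and 18.4 CPM in Siglec F-low libraries, the 47.5 in the library that stands apart. The sorts did not overlap (4% of genes in that direction with 24 libraries and 11.1% with 22), and the log2 fold change was -0.77 ± 0.23 (SE), edgeR adjusted p = 0.0505, with 24 libraries and -0.48 ± 0.14 (SE), edgeR adjusted p = 0.0323, with 22. The 22-library call was lost without Siglec F-high replicate 1, 2 or 4 or Siglec F-low replicate 2, at an edgeR adjusted p of up to 0.130. Old Siglec F-high libraries had 22.4, 20.04, 39.2 and 18.1 CPM and old Siglec F-low libraries 15.4, 17.7, 17.1 and 14.2 CPM, again without overlap and not called (-0.34 ± 0.15 (SE), edgeR adjusted p = 0.166, with 22 libraries and -0.54 ± 0.23 (SE), edgeR adjusted p = 0.250, with 24). In the old sorts 6.95% of all genes with 24 libraries and 10.9% with 22 lay apart in that direction. The antisense overlap named above applies to all these Klf7 values.

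The 3 genes nearest to Klf13 were Kdm3b at 0.968, Stk4 at 0.956 and Tm6sf1 at 0.953, and those nearest to Klf7 were Kat7 at 0.935, Supt6 at 0.929 and Nlrc4 at 0.929, as Spearman coefficients over 22 libraries. Over 24 libraries these were 0.788 to 0.916 for Klf13 and 0.71, 0.705 and 0.753 for Klf7. Of 9 partners and targets of Klf3 and Klf13, all tested, 0 were called in the young sorts with 24 libraries, and 2 rose and 1 fell with 22. The share of all genes called was 4.99% and 12%. Lgals3, the gene of galectin-3, rose from 1075 ± 81.0 (SD, n = 3) to 1598 ± 153 (SD, n = 4) CPM in young Siglec F-low cells, and Ctbp2, a corepressor bound by KLF3, fell from 52.4 ± 2.27 (SD, n = 3) to 44.5 ± 2.62 (SD, n = 4) CPM. Ctbp1 was at 161 ± 4.24 (SD, n = 3) and 163 ± 6.27 (SD, n = 4) CPM.

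Klf10 had its highest means in naive cells and its lowest in old Siglec F-low cells, and was not called in any comparison by edgeR with 24 or 22 libraries. Young naive libraries had 168, 219, 200.2 and 199 CPM, and young asbestos Siglec F-high libraries 138, 166, 62.1 and 183 CPM, with the 62.1 in the library that stands apart, where Klf2 and Klf6 were highest. Asbestos and naive libraries overlapped at both ages. Klf10 had a log2 fold change of -0.28 ± 0.17 (SE) in young and -0.44 ± 0.17 (SE) in old cells with 22 libraries (edgeR adjusted p = 0.431 and 0.167), and -0.52 ± 0.24 (SE) and -0.49 ± 0.24 (SE) with 24 (edgeR adjusted p = 0.233 and 0.598). Old Siglec F-low libraries, at 129, 107, 118 and 83.3 CPM, held the lowest group mean, 109 ± 19.6 (SD, n = 4).

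Klf10 is induced by TGF-beta, and 17 of 18 genes of that pathway were tested. In the young sorts 1 rose and 2 fell with 24 libraries, and 2 rose and 6 fell with 22. In those fits 4.99% and 12% of all genes were called. In the old sorts 0 were called with 24 libraries, and 1 rose and 5 fell with 22, beside 4.3% and 11.6% of all genes called. Tgfbr1, the type I receptor, fell from 478 ± 21.7 (SD, n = 3) to 375 ± 9.57 (SD, n = 4) CPM in young and from 445 ± 34.8 (SD, n = 3) to 356 ± 49.8 (SD, n = 4) CPM in old Siglec F-low cells with 22 libraries. Skil, a repressor of SMAD proteins, fell from 217 ± 27.1 (SD, n = 3) to 154 ± 8.12 (SD, n = 4) CPM in the young sorts. Smurf1, a ubiquitin ligase of the pathway, rose from 60.3 ± 12.0 (SD, n = 3) to 90.8 ± 9.97 (SD, n = 4) CPM. Smad7, the inhibitory SMAD, was at 5.96 to 9.35 CPM in the 6 groups and was not called. The nearest patterns to Klf10 were Tsc22d4 at 0.915, Bmf at 0.915 and Adrb1 at 0.913 (0.923, 0.845 and 0.771 over 24 libraries).

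Klf9, near the middle of the genes tested, was not called in any comparison by edgeR with 24 or 22 libraries, and was called between the young sorts in 1 of the 8 fits that left out 1 library of 24. Young naive libraries had 29.9, 30.9, 41.3 and 43.3 CPM and old naive libraries 21.7, 29.2, 26.2 and 27.1 CPM. The old libraries lay below the young ones without overlap, as for 5% of genes in that direction, and the log2 fold change was -0.48 ± 0.18 (SE), edgeR adjusted p = 0.121, with 22 libraries. In Siglec F-low cells the old mean was the higher, 35.2 ± 5.19 (SD, n = 4) against 26.8 ± 6.34 (SD, n = 4) CPM, with overlap. Asbestos Siglec F-high libraries had 21.1, 42.1, 75.8 and 32.3 CPM in young and 31.9, 26.0, 44.1 and 28.5 CPM in old lungs, and replicate 3 was the highest of both groups. Its nearest patterns were weaker than those of the other members, with Trib2 and Ttc39c at 0.701 and Il15ra at 0.689 over 22 libraries.

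Of 13 glucocorticoid-responsive genes 12 were tested, and those called for age in asbestos lungs were lower in old cells. With 24 libraries 3 fell in Siglec F-high and 1 in Siglec F-low cells, and with 22 it was 2 and 2. All genes called there came to 4.76% and 1.29% with 24 libraries, and 7.32% and 7.21% with 22. Fkbp5, a chaperone that the glucocorticoid receptor induces, was at 255 ± 108 (SD, n = 3) in young and 99.7 ± 11.3 (SD, n = 3) CPM in old asbestos Siglec F-high cells, and at 160 ± 66.0 (SD, n = 4) and 69.6 ± 2.84 (SD, n = 4) CPM in Siglec F-low cells. It was called in both sorts and in both fits. Klf9, of the same background, was called in neither sort. Nr3c1, the receptor gene itself, was at 109 to 143 CPM in the 6 groups and was not called.

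Klf3 was not called in any comparison by edgeR without a replicate block either, with 24 or 22 libraries. Its group means ran from 37.1 ± 5.09 (SD, n = 4) CPM in young Siglec F-low to 52.7 ± 4.89 (SD, n = 4) CPM in young naive cells, and all neighbouring groups overlapped. Its lowest library was young asbestos Siglec F-high replicate 3 at 11.9 CPM and its highest old asbestos Siglec F-high replicate 3 at 74.3 CPM, the 2 that stand apart. Between the young sorts the log2 fold change was -0.34 ± 0.13 (SE), edgeR adjusted p = 0.0992, with 22 libraries and -0.05 ± 0.28 (SE), edgeR adjusted p = 0.941, with 24. Leaving out 1 more of the 22 called Klf3 there in 2 of 7 fits, and so did the replicate block on the 22. Its nearest patterns were Cited2 at 0.898, Rprd2 at 0.887 and Taok1 at 0.883 over 22 libraries (0.72, 0.913 and 0.91 over 24).

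**Figure D4:**
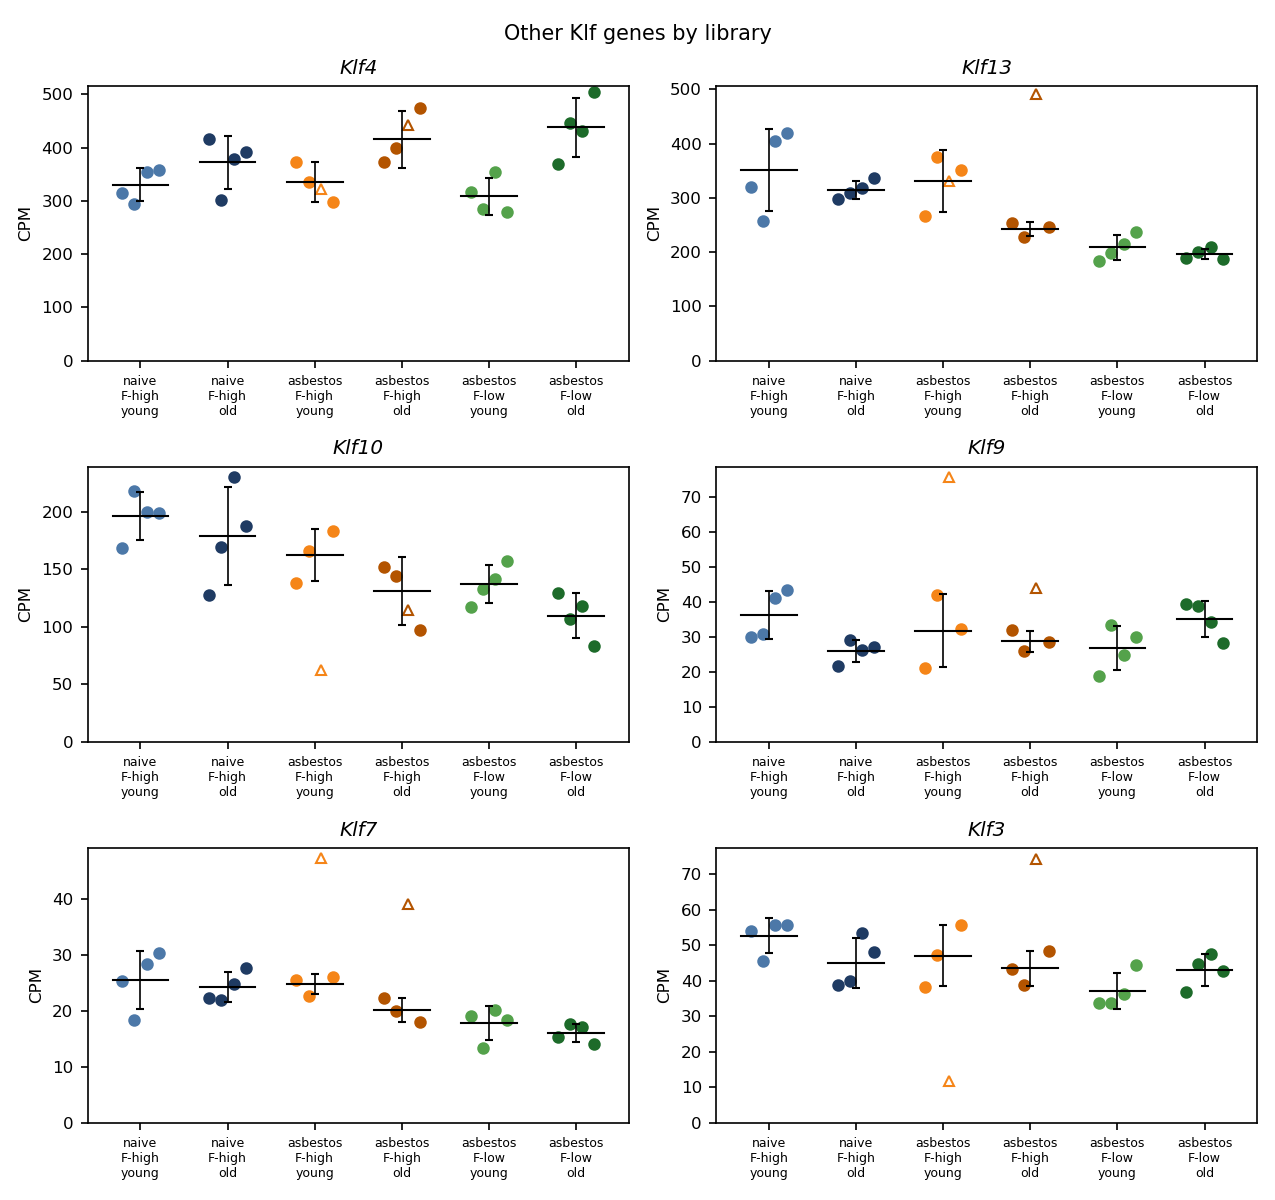
Klf4, Klf13, Klf10, Klf9, Klf7 and Klf3 in CPM by group; filled circles are libraries, open triangles the 2 libraries that stand apart, and bars the mean ± SD without those. Klf4 was higher in old than in young Siglec F-low libraries. Within asbestos lungs of the same age, Klf13 and Klf7 were lower in Siglec F-low than in Siglec F-high libraries. In Klf9, Klf7 and Klf3 both triangles lay outside the range of the other libraries of their group.

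Of 18 other Krüppel-like and Sp genes only 7 were tested, and none was called with 24 libraries in any of the 7 comparisons. With 22 libraries 1 was called, Sp3, a GC box-binding factor, which was lower in old than in young naive cells (-0.26 ± 0.07 (SE), edgeR adjusted p = 0.0256). Klf11, a close relative of Klf10, had its highest mean in young naive cells, 30.3 ± 6.77 (SD, n = 4) CPM, and its lowest in old Siglec F-low cells, 16.3 ± 2.70 (SD, n = 4) CPM, and was not called. Klf16 stayed between 24.8 and 28.8 CPM and Sp1 between 82.7 and 106 CPM in the 6 group means. The 8 members had a median log2 fold change between -0.55 and 0.08 in the 7 comparisons with 24 libraries, where the median over all genes tested was between -0.01 and 0.04, and between -0.32 and 0.08 with 22.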

How the data were processed

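RNA of 24 sorted libraries (poly(A)-selected, 30 ng input, per the labels' protocols) had been read on 1 platform; the authors deposited 1 table of whole read counts per gene, not normalized. Per the submitters' processing notes, bcl2fastq 2.19.1, FastQC, Trimmomatic 0.36, STAR 2.6.0 and HTSeq 0.11.2 were used with build mm10. The annotation and strand setting of the counting are not given in the sources used here. If counting ignored strand, reads of Klf3 and Klf7 and of their antisense partners cannot be told apart.

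The counts were fitted as deposited with edgeR 4.0.16 in R 4.3.3: TMM factors, a minimum count of 10 and total of 15, 1 quasi-likelihood model of 6 group means over all 24 libraries, and Benjamini-Hochberg adjustment over all genes tested, called under 0.05. SEs are the log2 fold change over the square root of F, and 95% intervals are 1.96 SEs either way. The second fit left out the 2 libraries that stand apart. Alternatives were DESeq2 1.42.0, limma 3.58.1 voom, RLE size factors, no filter, only the libraries compared, a replicate block and leaving out each library; those set on 22 libraries other than edgeR's fit were added after the data had been seen. The edgeR, DESeq2 and limma fits were tested on simulated data.

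Gene symbols were found for 42462 of 43430 IDs, exon lengths and overlaps in GENCODE M21 on GRCm38 for 42546 (97.96%), and promoters in RefSeq. Protein sequences were not used here. No libraries held identical values, and no column of the table was left unmapped. Same-numbered libraries were checked for pairing by the correlation of their deviations from group means: with 24 libraries no pair of groups had every pair over 0.1, and with 22 only the old sorts had (0.161 to 0.216). The members and all gene lists were chosen with earlier results of these data known. Genes named beside the members are the 3 nearest by Spearman coefficient and members of those lists. Some results that this rule would name are not reported here.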

Additional observations from a re-analysis of the deposited data

Results flagged for a closer look

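In each group of 4 libraries the highest and lowest CPM of each of the 8 genes was compared with its nearest neighbour, as a share of the whole range. Of 48 such sets 5 held a library farther out than the 95% limit, where 2.4 would be passed by chance at 1 in 20.

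In young asbestos Siglec F-high cells, replicate 3 stood far above the others for Klf6, at 927 CPM against 278 to 343, and for Klf7, at 47.5 CPM against 22.8 to 26.1. In old asbestos Siglec F-high cells, replicate 3 stood far above the others for Klf13, at 491 CPM against 229 to 253. These 3 are values of the libraries that stand apart in depth, genes detected or rRNA-related share. The other 2 concern Klf6 in replicate 1, which was low at 474 CPM in young naive cells, against 542 to 555, and low at 292 CPM in young Siglec F-low cells, against 323 to 329.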

How the results depend on the processing

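No member's value that edgeR called on 24 or 22 libraries changed sign under an alternative that was run. Of the members' planned values, 1167 kept their side of the threshold, 26 passed it newly and 15 lost it; of those added after the data had been seen, 785 kept their side and 55 passed newly. Values that were not called could change sign, as for asbestos in young cells, where Klf7 and Klf9 were at 0.24 and 0.23 on the log2 scale with 24 libraries and at -0.06 and -0.20 with 22. The counts of members called that moved are as follows, and beyond the fewer or other libraries fitted the cause was not tested. They show where calls move and are not read against the share of all genes called. Limma voom on 24 libraries and the block on 22 called up to 2309 and 2440 genes in a comparison. Asbestos against naive gave 2 in young and 2 in old cells (Klf2 and Klf6) with 22 libraries, and the same counts with limma voom on 24 and with DESeq2, limma voom or the block on 22. The young sorts gave 2 (Klf7 and Klf13) with 22 libraries, with DESeq2, with limma voom and with the replicate block on 24, and with DESeq2 and limma voom on 22, but 0 when only the libraries compared were fitted. The old sorts gave 1 (Klf13) with DESeq2 or limma voom on 24. Age gave 2 in naive cells (Klf6 and Klf9) with limma voom on 24 and on 22. Age in asbestos Siglec F-high cells gave 2 (Klf4 and Klf13) with limma voom on 24, and 1 (Klf13) with DESeq2 or limma voom on 22. Age in Siglec F-low cells gave 0 with no filter on low counts.

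With the replicate number as a block, 24 libraries gave 0 for age in Siglec F-low cells (Klf4 at an edgeR adjusted p of 0.0520) and 2 in the young sorts. The block on 22 libraries gave 1 for age in naive cells (Klf6), 1 for age in asbestos Siglec F-high cells (Klf13), 2 for asbestos at each age, 3 in the young sorts (Klf3, Klf7 and Klf13) and 1 in the old sorts (Klf13). Only the old sorts passed the pairing check, with 22 libraries. The young sorts, at 0.329, 0.0877 and 0.249 with 22, did not. Missing the limit does not show that pairs are absent, so whether the block stands for pairs elsewhere is not known. As the block was fitted over all groups at once, its values for the old sorts are not those of a paired fit.

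Leaving out 1 library of 24 gave 0 to 1 members for age in asbestos Siglec F-high cells, 0 to 1 for age in Siglec F-low cells, 0 to 2 for asbestos in young cells, 0 to 3 in the young sorts and 0 to 1 in the old sorts. Leaving out 1 of the 22 gave 2 for asbestos in young and 1 to 2 in old cells, 0 to 1 for age in asbestos Siglec F-high cells, 1 to 3 in the young sorts and 0 to 1 in the old sorts. Over all genes, calls per comparison ran from 0 to 672 with 24 libraries, 2 to 1638 with 22, 0 to 1432 with DESeq2, 3 to 2309 with limma voom and 0 to 680 with the replicate block on 24. On 22 they ran from 13 to 1918 with DESeq2, 2 to 2392 with limma voom and 2 to 2440 with the block. The 3894699 counts of old asbestos Siglec F-high replicate 3, and 48 counts of Klf7 in it, limit the precision of every value that includes it.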
